A study of Mus musculus with 16 samples.

Results

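The genes described here carry glutamate signalling in the embryonic mouse head: the vesicular glutamate transporters Slc17a6 and Slc17a7 and the ionotropic receptor subunits Gria1, Gria2, Gria3, Gria4, Grin1, Grin2b, Grik2 and Grik3. They were chosen by gene symbol, and every probe set that the platform annotation assigns to one of these symbols alone was taken. Of the 10 genes, 9 were represented, by 21 of the 45037 probe sets that are not controls; the whole array named 18193 genes. Grin1 is not analysed here.

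Total RNA was measured on 6 arrays at embryonic day 9.5 (E9.5), on 4 arrays at day 11.5 (E11.5) and on 6 at day 13.5 (E13.5). The sample titles name embryo heads, whereas the series title speaks of brain. The labels used here give no genotype, strain, extent of dissection or pooling of embryos. No group carried a treatment. The submitters call the arrays of a stage biological replicates, but whether they came from separate litters is not given, so p-values measure the spread between these samples. Biotin was introduced by in vitro transcription in a one-cycle kit at E9.5 and E11.5, and by a second maker's amplification kit at E13.5. In any comparison with E13.5, the kit and the stage cannot be told apart.

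Glutamate is the main excitatory transmitter of the vertebrate brain. Vesicular transporters load it into synaptic vesicles, and a neuron that expresses one of them can release it. On the receiving cell, AMPA receptors (assembled from Gria subunits) carry most of the fast current, NMDA receptors (an obligate Grin1 subunit with Grin2 or Grin3 subunits) admit calcium when the membrane is depolarised, and kainate receptors (Grik subunits) act on both sides of the synapse.

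Levels are given as deposited intensity, a linear scale on which the median probe set of each array read 32. A mean intensity under 12, the lower quartile of each array, is called near background, and a fold that starts there is not exact. Intensities of different probe sets are not comparable with one another, so each gene was followed across stages only. Differences are log2 differences ± standard error from limma, and a gene was called at a Benjamini-Hochberg adjusted p under 0.05 over all genes. The brightest probe set stands for a gene unless another is named.

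Slc17a6 and Gria2 had the largest rises of the 9 genes, so their promoters are shown, from 250 bases before to 50 bases after each annotated start (RefSeq, GRCm38.p6, 5′ to 3′ on the gene's strand). Capitals mark the E-box CANNTG, the general site of basic helix-loop-helix factors, among them the proneural factors of the glutamatergic lineage. It is palindromic in form and was therefore searched for on both strands at once. Slc17a6 has 2 annotated starts on the plus strand, with windows chr7:51621580-51621879 and chr7:51624387-51624686. Gria2 lies on the minus strand, with the window chr3:80802786-80803085.
Slc17a6, first start: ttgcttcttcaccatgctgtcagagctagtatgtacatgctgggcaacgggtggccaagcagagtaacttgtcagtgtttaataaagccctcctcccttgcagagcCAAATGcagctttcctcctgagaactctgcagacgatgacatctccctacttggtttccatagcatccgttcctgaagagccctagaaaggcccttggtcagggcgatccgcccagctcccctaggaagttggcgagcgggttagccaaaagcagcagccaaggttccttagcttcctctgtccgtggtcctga
Slc17a6, second start: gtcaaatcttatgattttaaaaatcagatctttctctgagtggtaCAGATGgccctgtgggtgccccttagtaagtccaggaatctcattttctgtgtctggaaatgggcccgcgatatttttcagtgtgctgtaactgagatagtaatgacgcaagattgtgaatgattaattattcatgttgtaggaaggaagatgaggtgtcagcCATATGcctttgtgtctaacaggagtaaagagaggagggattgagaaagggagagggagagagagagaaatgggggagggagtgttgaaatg
Gria2: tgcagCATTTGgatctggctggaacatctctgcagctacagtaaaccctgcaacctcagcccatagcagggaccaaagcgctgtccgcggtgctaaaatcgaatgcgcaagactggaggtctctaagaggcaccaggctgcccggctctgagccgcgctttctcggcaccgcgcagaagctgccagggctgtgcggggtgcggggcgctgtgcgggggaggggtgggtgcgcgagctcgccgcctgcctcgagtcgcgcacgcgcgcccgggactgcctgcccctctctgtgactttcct

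The first Slc17a6 window held 1 E-box, CAAATG, whose first base is at position -144 from the start. The second held CAGATG at -205 and CATATG at -42. The Gria2 window held 1, CATTTG, at -245. An E-box occurred in 72.31% of 32851 promoter windows of this length, and the letters CAGATG occurred in 17.15%. A match describes letters and is neither a binding site nor a cause. Windows were found for 6 of the 9 measured genes, and none was matched for Gria1, Gria3 and Grin2b.

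Between E9.5 and E11.5, 5 of the 9 genes rose (Slc17a6, Gria2, Gria4, Grin2b and Grik3) and none fell. Over all 18193 genes, 31.0% were called higher and 26.9% lower. In limma, no gene of the 9 was lower at an unadjusted p under 0.05 either. Their median log2 difference was 0.475, and that of all genes was 0.0188. Between E11.5 and E13.5, 7 rose and 1, Grik3, fell, beside 27.9% and 27.0% of all genes, with medians of 0.875 and 0.0001. By the second-brightest probe sets of 8 genes, 4 rose and 0 fell in this step, and by the mean of all probe sets 0 fell. Slc17a7 was the gene not called. From E9.5 to E13.5, 7 rose and none fell, beside 32.7% and 29.1% of all genes, again with none lower at an unadjusted p under 0.05. Without the E9.5 array 15 or the E11.5 array 36, 1 gene (Gria3) was lower in the first step, and without the E13.5 array B63E5K, 1 (Slc17a7) over the whole interval. Because heads hold many cell types, fewer cells of a type and less RNA per cell cannot be told apart in any of these differences.

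**Figure D1:**
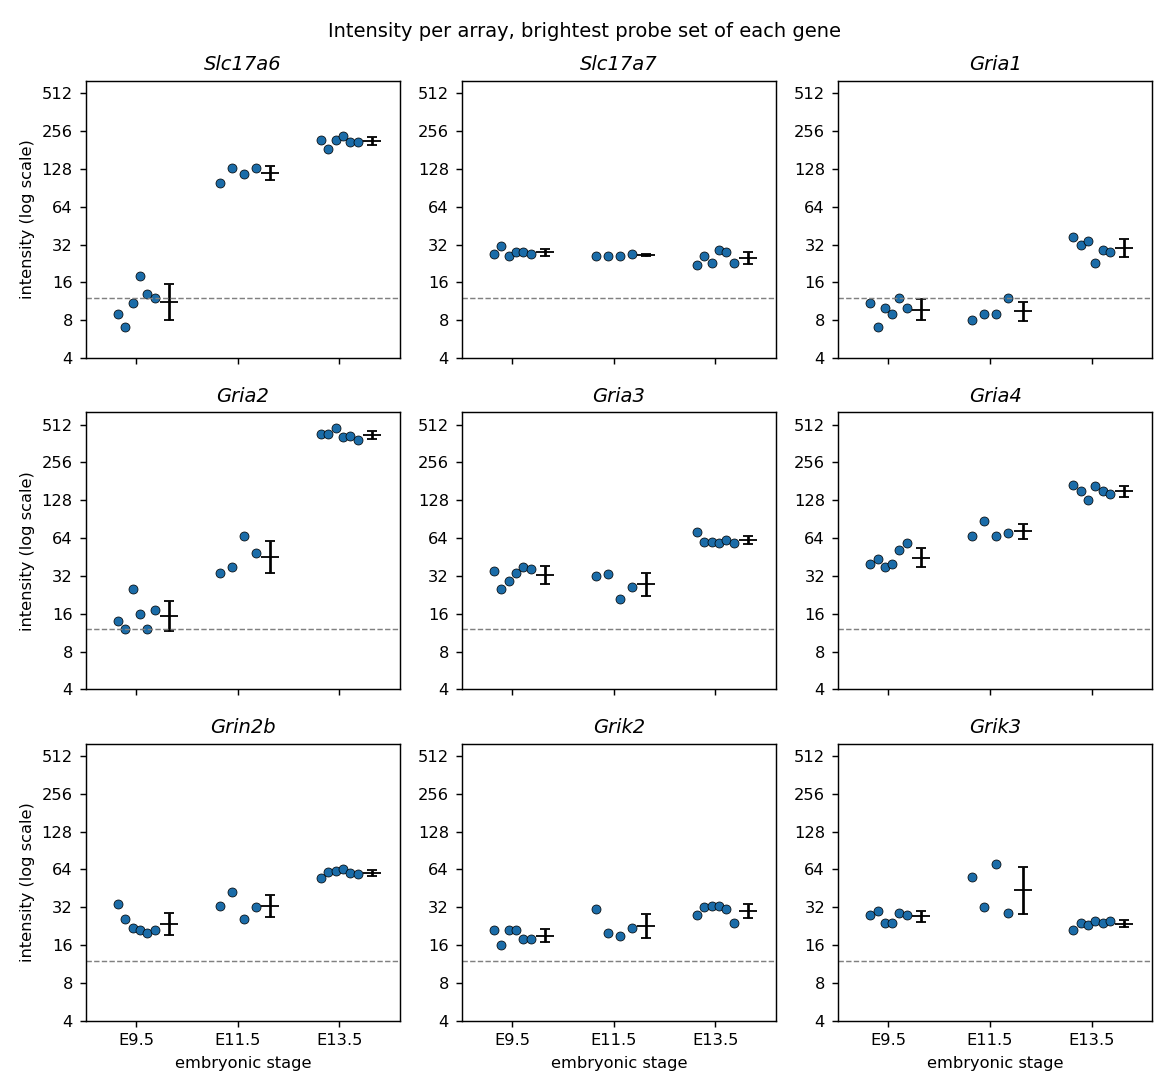
Deposited intensity (log scale) of the brightest probe set of each of the 9 measured genes on each of the 16 arrays, by stage; the black bars give the mean ± SD of log2 values and the dashed line an intensity of 12. Slc17a6 separated all 3 stages, Gria2 did so with its highest step to E13.5, and Slc17a7 stayed between 22 and 31 throughout.

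Slc17a6 encodes VGLUT2, the vesicular transporter of most glutamatergic neurons below the cortex and of many embryonic ones. On its brightest probe set (1428379_at) the 6 E9.5 arrays read between 7 and 18, with a median of 11.5. The 4 E11.5 arrays read 99, 130, 117 and 131, and the 6 E13.5 arrays read between 185 and 234, with a median of 215.0. The stages did not overlap. The rise to E11.5 was 3.41 ± 0.17 (adjusted p = 3.6e-12), a 10.6-fold difference from a level near background. With intensities under 12 set to 12 it was 3.19. The rise from E11.5 to E13.5 was 0.84 ± 0.17 (adjusted p = 0.00034), or 1.79-fold. The second step was smaller than the first by a direct test of the difference (-2.56 ± 0.31, adjusted p = 8.9e-07). Both steps use the same E11.5 arrays, and only the second crosses the change of kit. The other probe set (1418610_at) also rose at both steps, by 2.58 and 0.78, from 10 to 14 at E9.5 through 61 to 84 at E11.5 to between 118 and 151 at E13.5. The difference between both probe sets changed by 0.83 ± 0.16 in the first step (adjusted p = 0.00019), so the size of that rise depended on the probe set.

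Slc17a7 encodes VGLUT1, the transporter of mature cortical and hippocampal neurons. Its single probe set read between 26 and 31 at E9.5, 26, 26, 26 and 27 at E11.5, and between 22 and 29 at E13.5, so the 3 stages overlapped. None of the differences was called, with -0.08 ± 0.09 for the first step (adjusted p = 0.428) and -0.07 ± 0.09 for the second (adjusted p = 0.521). Its moderated F test over the stages gave an adjusted p of 0.197, whereas 75.8% of all genes and the 8 others passed. From E9.5 to E13.5 the difference was -0.15 ± 0.08 (adjusted p = 0.0945). It was called lower without the E13.5 array B63E5K (-0.19, adjusted p = 0.0358), and the adjusted p ranged from 0.0358 to 0.308 over its alternatives.

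Among the AMPA receptor subunits, Gria2 governs calcium entry: its edited form makes the channel nearly impermeable to calcium. Its brightest probe set (1421970_a_at) read between 12 and 25 at E9.5, with a median of 15.0. The E11.5 arrays read 34, 38, 66 and 49, and the E13.5 arrays read between 384 and 483, with a median of 422.0. No array of one stage reached the range of another. The first step was 1.55 ± 0.18 (adjusted p = 3.9e-07, 2.92-fold) and the second 3.23 ± 0.18 (adjusted p = 1.1e-11, 9.40-fold). The second step exceeded the first by 1.69 (adjusted p = 0.0002), the reverse of the order seen for Slc17a6, but this order depended on the probe set.

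The second-brightest Gria2 probe set (1453098_at) read between 23 and 27 at E9.5, then 110, 85, 153 and 106 at E11.5, and between 125 and 135 at E13.5. Here the first step was the large one, at 2.19, and the second, at 0.20, was not called (adjusted p = 0.143). The third (1434146_at) read between 6 and 12 at E9.5, then 18, 19, 20 and 15, and between 46 and 80 at E13.5. It rose at both steps, by 1.14 and 1.81. All 3 probe sets of Gria2 thus placed E13.5 above E9.5, by 4.78, 2.39 and 2.95, and they divided that rise differently between the steps. The difference between the brightest and second-brightest probe sets was itself tested over the 9010 genes with several, a test added after the values were seen. For Gria2 it changed by -0.64 ± 0.18 in the first step (adjusted p = 0.0042) and by 3.03 ± 0.18 in the second (adjusted p = 1.4e-11). Such changes were called for 58.0% of those genes in the first step and 56.8% in the second. The sources used here do not say which transcripts each probe set reads.

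Gria1 encodes a subunit known for its activity-dependent insertion into synapses. Its brightest probe set (1448972_at) was near background at both early stages, with 7 to 12 at E9.5 and 8, 9, 9 and 12 at E11.5, and read between 23 and 37 at E13.5. The first difference, between values near background, was -0.05 ± 0.15 and was not called (adjusted p = 0.808). The second step was 1.68 ± 0.15 (adjusted p = 6.2e-09), and 1.33 with intensities under 12 set to 12. The other probe set (1435239_at) read 7 to 10, then 9 to 10, then 25 to 35, with no call in the first step and a second step of 1.69. At E13.5 all 6 arrays lay above all 10 earlier ones on both probe sets.

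Gria3, another subunit of the family, read between 25 and 38 at E9.5, then 32, 33, 21 and 26 at E11.5, and between 59 and 71 at E13.5 on probe set 1434728_at. The early stages overlapped and E13.5 stood apart. The first difference was -0.24 ± 0.13 (adjusted p = 0.114) and the second 1.16 ± 0.13 (adjusted p = 1.4e-07). The first was called lower without the E9.5 array 15 (-0.31) or without the E11.5 array 36 (-0.33), with the adjusted p between 0.0283 and 0.469 over the alternatives of the same sign. Over the mean of both probe sets it was called higher (0.28, adjusted p = 0.0358). Probe set 1420563_at behaved differently. It read between 14 and 24 at E9.5, then 30, 33, 34 and 28, and between 25 and 36 at E13.5, so that it rose in the first step (0.79, adjusted p = 4.4e-05) and not in the second (-0.07, adjusted p = 0.677). The difference between both probe sets changed by -1.03 ± 0.16 and then by 1.24 ± 0.16 (adjusted p = 8.9e-06 and 7.8e-07). Both placed E13.5 above E9.5, by 0.92 and 0.72.

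Gria4, a subunit with fast kinetics, rose at both steps on probe set 1435722_at. Its E9.5 arrays read between 38 and 59, its E11.5 arrays 66, 88, 67 and 70, and its E13.5 arrays between 129 and 169, with no overlap. The steps were 0.69 ± 0.12 (adjusted p = 5.5e-05, 1.61-fold) and 1.07 ± 0.12 (adjusted p = 2.4e-07, 2.10-fold). Their difference in size, 0.38, was not called (adjusted p = 0.15); it was called without the E11.5 array 36 (0.57, adjusted p = 0.0442, over a range of 0.0442 to 0.414). The dimmer probe set 1440891_at rose in the first step (0.50) and was not called in the second (0.13), and 1421351_at was near background at all stages, with none of its differences called. The difference between the brighter pair of probe sets changed by 0.94 ± 0.19 in the second step (adjusted p = 0.00028).

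Grin2b encodes the GluN2B subunit, the main GluN2 partner of NMDA receptors in the embryonic brain. Its brightest probe set (1457003_at) read between 20 and 34 at E9.5, with a median of 21.5, then 33, 42, 26 and 32 at E11.5, and between 55 and 64 at E13.5. The first 2 stages overlapped, since the E9.5 arrays 13 and 15 read 34 and 26, and E13.5 lay above both. The steps were 0.48 ± 0.13 (adjusted p = 0.0049) and 0.88 ± 0.13 (adjusted p = 1.4e-05), and they summed to 1.35 ± 0.12 (adjusted p = 3.7e-09, 2.55-fold). Over the mean of its 4 probe sets the first step was 0.15 and was not called. The second-brightest (1431700_at, 16 to 21, then 21 to 35, then 21 to 25) rose in the first step by 0.56 and gave -0.18 in the second, which was not called. The difference between the brighter pair changed by 1.06 ± 0.21 in that step (adjusted p = 0.0002). The third (1422223_at) fell by 0.63 and then rose by 0.59, and the dimmest (1442370_at) went from 5 to 7 at both early stages to between 14 and 24.

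Among the kainate receptor subunits, Grik2 encodes GluK2, which can form channels by itself. It read between 16 and 21 at E9.5, then 31, 20, 19 and 22 at E11.5, and between 24 and 33 at E13.5. The first difference was 0.24 ± 0.13 (adjusted p = 0.111). Without the E11.5 array 51 it was called (0.33, adjusted p = 0.0478, over a range of 0.0478 to 0.657). Leaving out each array in turn gave 0.09 to 0.33. The E11.5 array 33 read 31, and the other E11.5 arrays, at 19 to 22, lay close to the E9.5 range. The second step of 0.41 ± 0.13 was called (adjusted p = 0.01), but not with the prefix of the E13.5 titles as a random block (adjusted p = 0.0697, over a range of 1.47e-05 to 0.0697). Its other probe set (1457683_at) gave -0.06, not called, and then a rise of 0.48, and from E9.5 to E13.5 Grik2 rose by 0.65 ± 0.11 (adjusted p = 4.2e-05).

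Grik3 encodes GluK3, and its brightest probe set (1427709_at) was the only one among those representing the 9 genes to fall from E11.5 to E13.5. It read between 24 and 30 at E9.5, then 56, 32, 71 and 29 at E11.5, and between 21 and 25 at E13.5. The E11.5 arrays fell into a pair of high and a pair of low values, and of the low ones 1 lay within the E9.5 range and 1 just above it. The rise was 0.70 ± 0.18 (adjusted p = 0.0021), or 0.46 without the E11.5 array 51, and the second difference was -0.89 ± 0.18 (adjusted p = 0.00024). Over the mean of both probe sets that second difference was -0.16 and was not called. Probe set 1440177_at instead rose at both steps, by 0.83 and 0.57, from 9 to 20 at E9.5 through 24, 23, 31 and 24 to between 36 and 40 at E13.5. The difference between both changed by -1.46 ± 0.21 in the second step (adjusted p = 4.5e-06). The direction for Grik3 after E11.5 therefore depended on the probe set.

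**Figure D2:**
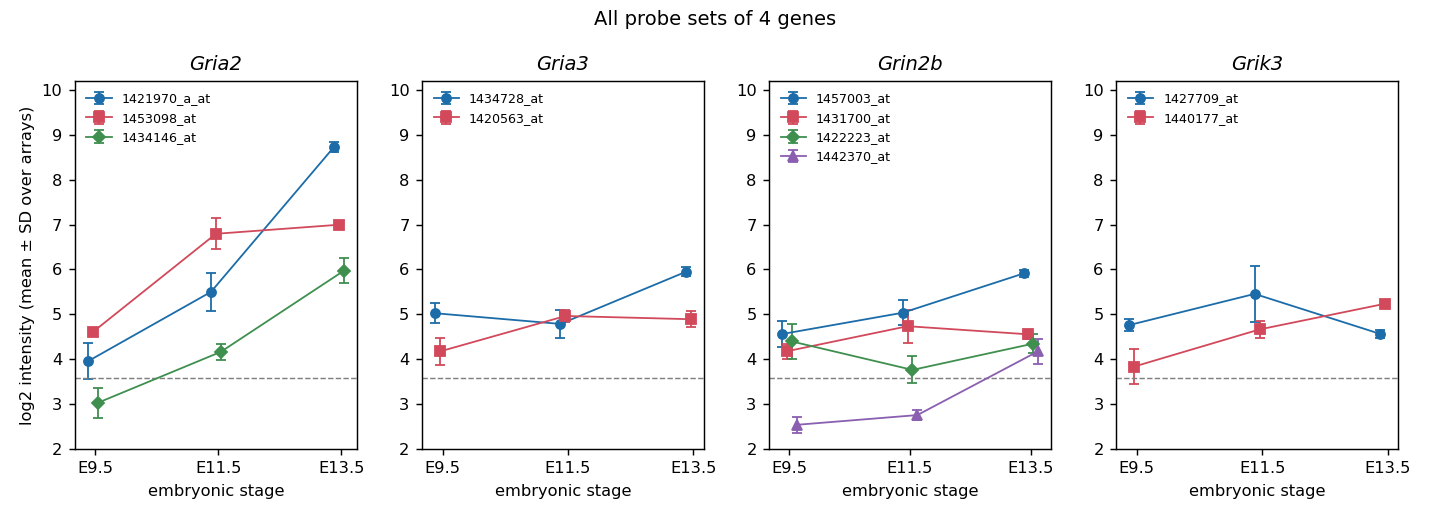
Log2 intensity (mean ± SD over the 6, 4 and 6 arrays of a stage) of every probe set of Gria2, Gria3, Grin2b and Grik3, with 1 line per probe set; the dashed line marks an intensity of 12. For Gria2 all 3 lines ended above their E9.5 value. After E11.5 the lines of each of the 4 genes ran differently. The change in the difference between the brighter pair was 3.03 for Gria2, 1.24 for Gria3, 1.06 for Grin2b and -1.46 for Grik3.

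Over all 21 probe sets, 12 were higher and 1 lower at E11.5 than at E9.5, where 52.4% of all probe sets were called in either direction. From E11.5 to E13.5, 14 were higher and 1 lower (51.5% of all called in either direction). From E9.5 to E13.5, 17 were higher and none lower (57.6% of all in either direction). Shares of all probe sets by direction were not computed. By the brightest probe set alone, the arrays of the later stage lay wholly above those of the earlier one for 3 genes in the first step, 6 in the second and 7 over the whole interval. The shares of all genes were 19.9%, 22.3% and 23.9%. Grik3 lay wholly below in the second step, as 20.7% of genes did. The signed second step minus the first was called for 5 genes, positive for Gria1, Gria2 and Gria3 and negative for Slc17a6, whose second rise was smaller, and for Grik3, whose second step went the other way, beside 26.3% and 27.0% of all genes. Without the E11.5 array 36, it was positive for 5 genes, Gria4 and Grin2b being added.

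Neuronal markers rose in the same arrays. All 18 pan-neuronal markers, such as Tubb3, Dcx and Stmn2, rose in the first step and 15 in the second. None was near background at any stage. The 3 not called in the second step, Dcx, Elavl4 and Nefm, read lower at E13.5 than at E11.5. Dcx read 1835 to 1929 at E11.5 and 1227 to 1393 at E13.5. Elavl4 read 638 to 760 and then 507 to 623, and Nefm 1695 to 2267 and then 1250 to 1484. Of all genes, 31.0% rose in the first step and 27.9% in the second. The summed intensity of the 18 markers was 2224 to 4108 at E9.5, 13681 to 15732 at E11.5 and 28116 to 29517 at E13.5. Their mean log2 level rose by 2.24 and then by 1.07 (exact two-sided permutation p = 0.0095 for each, the smallest that 6 against 4 arrays can give). Each member was therefore also compared with that mean on the same array.

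Relative to the pan-neuronal mean, Slc17a6 was the only one of the 9 genes whose brightest probe set gained in the first step, by 1.17 ± 0.18 (adjusted p = 1.1e-07), and 0.401% of all genes did so. On its other probe set the gain was 0.34 ± 0.19 and was not called (adjusted p = 0.089), and the brightest gave 0.76 against the median of the markers in place of their mean. The brightest was the dimmer one at E9.5 (mean log2 level 3.48 against 3.67). It ranked first only through its E11.5 and E13.5 values, which favours a gain in this step. At E9.5 the pan-neuronal mean log2 level was 6.53 to 6.76 on arrays 13, 15 and 24 and 7.21 to 7.45 on the others, and without arrays 13 and 15 the gain was 1.13. The other 8 genes were lower against that mean on their brightest probe sets, as 98.8% of all genes were. The second-brightest Gria2 probe set gave -0.05, not called.

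In the second step the brightest Gria2 probe set gained 2.17 ± 0.20 (adjusted p = 3.5e-12) against the pan-neuronal mean, beside 2.26% of all genes, but the direction depended on the probe set. That probe set ranked first only through its E13.5 values, which favours a gain in this step. The third gained 0.74, and the second-brightest was called lower, at -0.86 ± 0.19 (adjusted p = 7.1e-05). Gria1 gained 0.62 ± 0.20 (adjusted p = 0.0051), and its other probe set 0.62 ± 0.18 (adjusted p = 0.0016). Both gains started from a level near background at E11.5. With intensities under 12 set to 12, the gain of the brightest Gria1 probe set was 0.26 and was not called (adjusted p = 0.188). Slc17a7, Grik2 and Grik3 were lower, beside 87.9% of all genes, of which Grik2 was not called against the median of the markers (-0.44). Slc17a6, Gria3, Gria4 and Grin2b were not called on their brightest probe sets. Other probe sets of Gria3 (-1.14), Gria4 (-0.94 and -0.81) and Grin2b (-1.25 and -0.48) were called lower in this step. The dimmest Grin2b probe set (0.36) and the other of Slc17a6 (-0.28) were not called. From E9.5 to E13.5, the brightest probe sets of Gria2 (1.47) and Slc17a6 (0.94) were above the pan-neuronal mean, beside 0.500% of all genes, and 7 genes were below it, beside 99.0%. The other Gria2 probe sets gave -0.92, called lower, and -0.36, not called, and the other Slc17a6 probe set gave 0.05, not called. No gain over the pan-neuronal mean was thus called on every probe set of Slc17a6 or of Gria2.

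**Figure D3:**
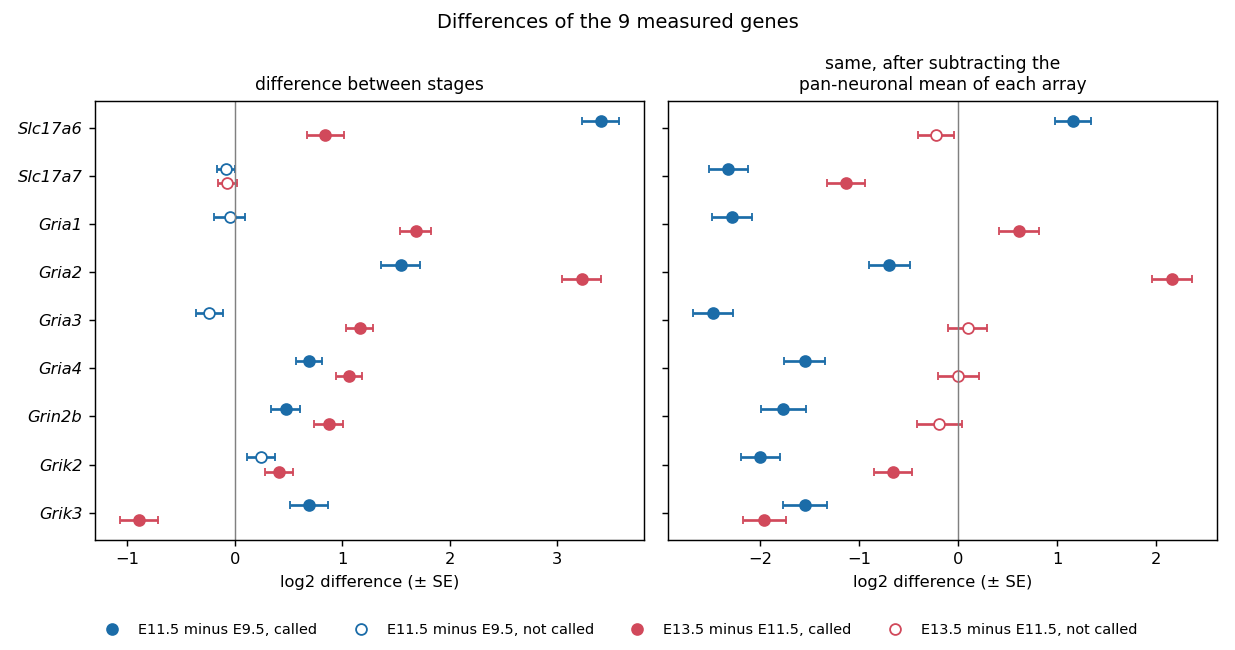
Log2 differences ± SE of the 9 genes for both steps, on the left as measured and on the right after subtracting each array's pan-neuronal mean; filled points were called in limma. The brightest probe set is plotted. On the right it was called above 0 for Slc17a6 in the first step and for Gria2 and Gria1 in the second. Gria3 (0.097) and Gria4 (0.001) also lay above 0 in the second step but were not called. Other probe sets of Slc17a6 and Gria2 were not all called above 0.

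The other genes of glutamate signalling were taken from fixed lists. Of all genes, 31.0% were called higher and 26.9% lower in the first step, and 27.9% and 27.0% in the second. A list count near these shares is no result about that list. Of 9 further ionotropic subunits, 4 rose and 1 fell in the first step, and 2 rose and 2 fell in the second. Grik5, which encodes a kainate subunit that needs a partner to form channels, rose by 0.96 in the first step, from 107 to 145 at E9.5 to 200 to 270 at E11.5. Grin3a, a glycine-binding NMDA subunit, rose by 1.26 in the second, from 12 to 15 at E11.5 to 27 to 34 at E13.5. Its other 2 probe sets gave a smaller rise (0.64) and a fall (-0.31) in that step.

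Of 7 other transporters, 2 rose and none fell in the first step, and 3 rose and 2 fell in the second. The shares of all genes given above stand beside these counts and those of the lists that follow. Slc1a2, a glial plasma membrane transporter that clears glutamate, rose by 1.25 and then 1.48 on its brightest probe set, from 33 to 81 through 106 to 155 to between 327 and 390. Of its 4 other probe sets, 1 rose in the first step and fell in the second, and 3 were not called in either. The neuronal transporter Slc1a1 rose by 1.27 in the second step, and by 0.30 and 0.27 on its other probe sets. Slc38a1, a glutamine transporter, fell by 0.57.

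Of 22 auxiliary subunits and scaffolds, 10 rose and 3 fell in the first step, and 8 rose and 4 fell in the second. Among the genes for AMPA receptor auxiliary proteins, Cnih2 rose by 2.04 and Cacng4 by 1.94 from E9.5 to E13.5. The other Cacng4 probe set rose by 0.55 over that interval and fell by 0.44 in the second step. Cacng7 rose by 3.54 and fell by 2.06 on its brightest probe set, and neither difference was called on the other. Of 6 metabotropic receptors, 3 rose and none fell in the first step, and 3 rose and 2 fell in the second, with Grm3 at 1.30 and Grm7 at 1.27. The other 2 probe sets of Grm7 were not called in that step (0.05 and 0.20). Of 6 enzymes, 3 rose and 2 fell, then 1 rose and 4 fell. Adarb1, which edits the Gria2 transcript, read 39 to 55, then 68 to 110, then 27 to 31 on its brightest probe set. It rose by 1.01 and fell by 1.63, while its other 2 probe sets were not called at either step.

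Markers of other cell types also moved with the stages, and their part in the results above was not tested. Of all genes, 31.0% were called higher and 26.9% lower in the first step, and 27.9% and 27.0% in the second. Of 8 GABAergic markers, 7 rose at each step, and their summed intensity went from 341 to 411 through 836 to 928 to between 1370 and 1478. Of 10 radial glia and astroglial markers, 7 rose and none fell in the first step and 5 rose and 3 fell in the second, with sums of 3504 to 5451, 9903 to 10435 and 11683 to 12111. Of 7 cranial sensory ganglion markers, 4 rose and none fell in the first step and 2 rose and 3 fell in the second, and their sums were 772 to 936, 1715 to 2072 and 1357 to 1499; such ganglia also hold glutamatergic neurons. Of 8 connective tissue markers, 7 rose in the first step and 6 in the second, with none falling, and their sums were 3660 to 4856, 8046 to 8663 and 21980 to 24360. Skeletal muscle markers, summing to 184 to 241 and 196 to 217 at the early stages, summed to between 5019 and 6870 at E13.5, where Myf5 alone of the 10 was near background. Eye and lens markers summed to 347 to 432 at E9.5, 246 to 306 at E11.5 and 1462 to 2078 at E13.5. Of these 9, 3 rose and 5 fell in the first step, and 7 rose and 1 fell in the second.

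The E13.5 titles carry 2 prefixes, B62 and B63, whose meaning is not given. On the brightest probe set of Gria1, the 3 B62 arrays (32 to 37) lay above the 3 B63 arrays (23 to 29), and on that of Gria2 likewise (431 to 483 against 384 to 413). The arrays of both prefixes overlapped on the 19 other probe sets. How many of all probe sets separated in this way was not computed, so this is no result about Gria1 or Gria2. For Gria1 and Gria2 the ranges of both prefixes lay above all E11.5 arrays. Over all genes, however, the consensus correlation of arrays sharing a title prefix was 0.601. The main fit takes the E13.5 arrays as independent, so its standard errors for comparisons with E13.5 may be too small.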

How the data were processed

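The authors deposited 1 linear intensity per probe set and array, as a whole number; the submitters' processing notes name RMA, with no version or settings in the sources used here. Of 45101 probe sets, 64 controls were left out; 34945 named 1 gene, 932 named several and 9160 none in the platform annotation. Of the named ones, 34741 matched a gene of the RefSeq table (GRCm38.p6), and 0 symbols changed. No sample column went unused. Log2 values of all genes, each by its brightest probe set on average over the 16 arrays, were fitted with limma 3.58.1 (R 4.3.3) in 1 model of 3 stages, with adjustment by Benjamini-Hochberg over 18193 genes; probe sets were fitted separately over all 45037. The fit was tested on simulated data. All 10 genes were to be named with every probe set; of other lists, counts and up to 2 called rises and falls a comparison were named. The members and lists were chosen with earlier results of these data known. No pair of arrays was identical. The number of arrays limits the precision. The tests of brightest minus second-brightest probe set, and of single probe sets or floored values against the pan-neuronal mean, were added after the values were seen. Alternatives covered normalization, choice of probe set, dim values, model, title prefix and leaving out arrays.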

Additional observations from a re-analysis of the deposited data

Results flagged for a closer look

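Within each stage, 63 groups of arrays were examined for 1 array lying far from the rest, and 6 had one. For continuous, normally distributed values, chance gives about 1 in 20. These values are whole numbers with ties, and the groups share arrays, so 6 of 63 cannot be set against that rate. Each of the 6 values below is an intensity that stood far from the other arrays of its stage.

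The E11.5 array 33 read 61 on the second Slc17a6 probe set (1418610_at), where the others read 81 to 84. The E11.5 array 52 read 27 for Slc17a7, where the others read 26. The E9.5 array 22 read 27 on Gria2 probe set 1453098_at, where the others read 23 to 24. The E13.5 array B62E6K read 71 on the brightest Gria3 probe set, where the others read 59 to 62. The E11.5 array 36 read 6 on Grin2b probe set 1442370_at, where the others read 7. The E11.5 array 51 read 31 on Grik3 probe set 1440177_at, where the others read 23 to 24. For Slc17a7 and Grin2b the gap is 1 step of the whole-number scale.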

How the results depend on the processing

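Of 1492 alternative values for 63 single-gene results, 1434 kept their direction and their side of the threshold, 13 lost the call, 12 gained it and 33 changed sign; the cause was not tested. The choice of probe set moved most. With the second-brightest probe set, the first step was 0.17 for Gria1, 0.79 for Gria3 and -0.061 for Grik2. The second step was -0.072 for Gria3, 0.57 for Grik3 and -0.18 for Grin2b, and from E9.5 to E13.5 Grik3 was 1.40. The second step minus the first was then -1.99 for Gria2, -0.86 for Gria3, -0.37 for Gria4 and -0.74 for Grin2b. In the second step 4 genes were then higher and 0 lower, and 4 genes had a negative difference of steps. With the mean of all probe sets, the first step was 0.064 for Gria1 and 0.28 for Gria3, Grik3 was 0.60 from E9.5 to E13.5, and 0 genes were lower in the second step. The difference of steps of Slc17a7 was -0.0091 with array medians subtracted, -0.012 with array weights and -0.015 without the E9.5 samples 13 and 15; without those, 1 gene (Gria3) was lower in the first step. With only the compared stages fitted, 1 gene (Grik3) was lower from E9.5 to E13.5. Chosen after seeing the data, the second-brightest probe sets were also set against the pan-neuronal mean. There the second step was -0.86 for Gria2, -1.14 for Gria3 and -0.94 for Gria4, and Gria2 was -0.92 from E9.5 to E13.5. Genes above that mean then numbered 0 in the first step, 1 in the second and 0 from E9.5 to E13.5, and 6 were below it in the second. With intensities under 12 set to 12, also chosen afterwards, 1 was above it in the second step. Against the median of the pan-neuronal markers, the second step of Grin2b was 0.027.

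Leaving out each array in turn gave a range of -0.16 to 0.031 for the first step of Gria1 and -0.029 to 0.051 for the difference of steps of Slc17a7. Relative to the pan-neuronal mean, the second step ranged from -0.069 to 0.21 for Gria3 and from -0.070 to 0.12 for Gria4. Lower genes numbered 0 to 1 in the first step (1 without the E9.5 array 15 or the E11.5 array 36) and 0 to 1 from E9.5 to E13.5 (1 without B63E5K). Genes with a positive difference of steps numbered 3 to 5, with 5 without the E11.5 array 36. No paired analysis was possible because the groups share no replicate numbers. Whole-number rounding and signal close to background limit the dim probe sets most.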

Other observations

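Of 17 transcription factors of the glutamatergic lineage, 13 rose and 2 fell from E9.5 to E11.5, and 3 rose and 6 fell from E11.5 to E13.5. The shares of all genes were 31.0% higher and 26.9% lower, then 27.9% and 27.0%. In the first step Lhx9 and Eomes, a factor of cortical intermediate progenitors, each rose by 2.75. The other Eomes probe set rose by 2.08, and the 3 others of Lhx9 by 0.59 to 3.07. Neurod6, a factor of postmitotic cortical excitatory neurons, was near background at both early stages (6 at E9.5 and 7 to 8 at E11.5) and read 124 to 171 at E13.5. The proneural factors Neurog1 and Atoh1 fell by 2.07 and 2.04 in the second step, while the other Neurog1 probe set was not called there (-0.05).

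The genes whose centred log2 profile over the 16 arrays lay closest to that of Slc17a6 were Add2, Gad1 and Celf5, with root mean square differences of 0.257, 0.295 and 0.299, among 15338 genes searched. Those closest to Gria2 were Tnc, Tlcd3b and Col6a1, at 0.303, 0.323 and 0.329. These are descriptions of profiles that share the same arrays.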
